A study of Caenorhabditis elegans with 6 samples.

Results

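A set of 10 genes of fatty acid desaturation and fat synthesis were followed in alg-1(gk214) mutants and in the N2 wild type strain of *Caenorhabditis elegans*. They are fat-1 to fat-7, which encode the fatty acid desaturases, and the lipogenic genes sbp-1, pod-2 and fasn-1. The members were taken by gene symbol from the array platform's annotation, which gave 11 probe sets for 10 genes, out of 22548 probe sets and 17118 genes tested. Each gene had 1 probe set except fasn-1, which had 2.

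There were 3 arrays of the mutant, named alg-1(-) in the labels, and 3 arrays of N2. Total RNA came from whole worms at L4, the final larval stage, from synchronized cultures grown at 25 °C on OP50 bacteria. ALG-1 is an Argonaute, loaded with microRNAs that guide it to mRNAs for repression, and the study asked how genes targeted by ALG-1 are expressed without it. The labels call the replicates independent but do not say what was independent, so p-values measure the spread between these RNA samples. In RNA of whole worms, fewer cells of a type and less RNA per cell cannot be told apart.

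Worms can make unsaturated fatty acids themselves. Acetyl-CoA carboxylase (POD-2) makes malonyl-CoA, and fatty acid synthase (FASN-1) uses it to build saturated chains. The delta-9 desaturases FAT-5, FAT-6 and FAT-7 insert the first double bond, and FAT-2, FAT-1, FAT-3 and FAT-4 add further ones on the way to polyunsaturated fatty acids. SBP-1 is the worm homolog of the mammalian SREBP transcription factors, which activate genes of fat synthesis and desaturation. The intestine and the hypodermis, the worm's epidermis, are the main fat-storing tissues.

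The targeted gene was lower on all 3 mutant arrays. Its brightest probe set read 5.90, 6.09 and 6.09 log2 units in the mutant, against 6.80, 6.83 and 6.65 in wild type, a difference of −0.73 (SE 0.085, limma adjusted p = 0.000245), and of its other probe sets one fell by 0.62 while one, at −0.10, did not pass. The sources used here do not place these probes relative to the gk214 lesion, which limits them as a check of the genotype. Across probe sets, arrays correlated at 0.998 within the mutant, at 0.994 to 0.996 within wild type and at 0.968 to 0.976 across genotypes. Control probe sets for GAPDH, a measure of RNA integrity, gave 3′ minus 5′ differences of −0.22 to −0.14 log2 in the mutant, and of −0.23, −0.23 and −0.58 on wild type arrays 1, 2 and 3.

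The genes did not move as a block. Of the 10 genes, 3 were higher in the mutant (fat-5, fasn-1 and fat-6), 2 were lower (sbp-1 and pod-2) and 5 did not pass a limma adjusted p of 0.05. Over all genes, 34.6% passed at this threshold, 14.4% as higher and 20.1% as lower. Most calls came from bright probe sets, and 10 of the 11 member probe sets lay above the median signal. Probe sets above that median, fitted alone, gave 5636 calls, 2671 higher and 2965 lower. All 22548 probe sets, from both sides of the median, gave 7591 calls, 3340 higher and 4251 lower. The share called was therefore larger among bright probe sets than over all. The members were not compared with genes of like signal. The rises of fat-5 and fasn-1 exceeded 2-fold, a size of rise reached at the same threshold by 3.21% of all genes. The mutant arrays lay wholly above the wild type arrays for 3 of the 10 genes (19.1% of all genes) and wholly below for 3, fat-7 among them (29.6% of all genes), and 48.7% of all genes had no overlap in either direction. The median difference of the 10 genes was −0.03 log2, beside −0.06 for all genes. Differences are mutant minus wild type on the log2 scale throughout, tested with limma and adjusted over all 22548 probe sets.

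**Figure D1:**
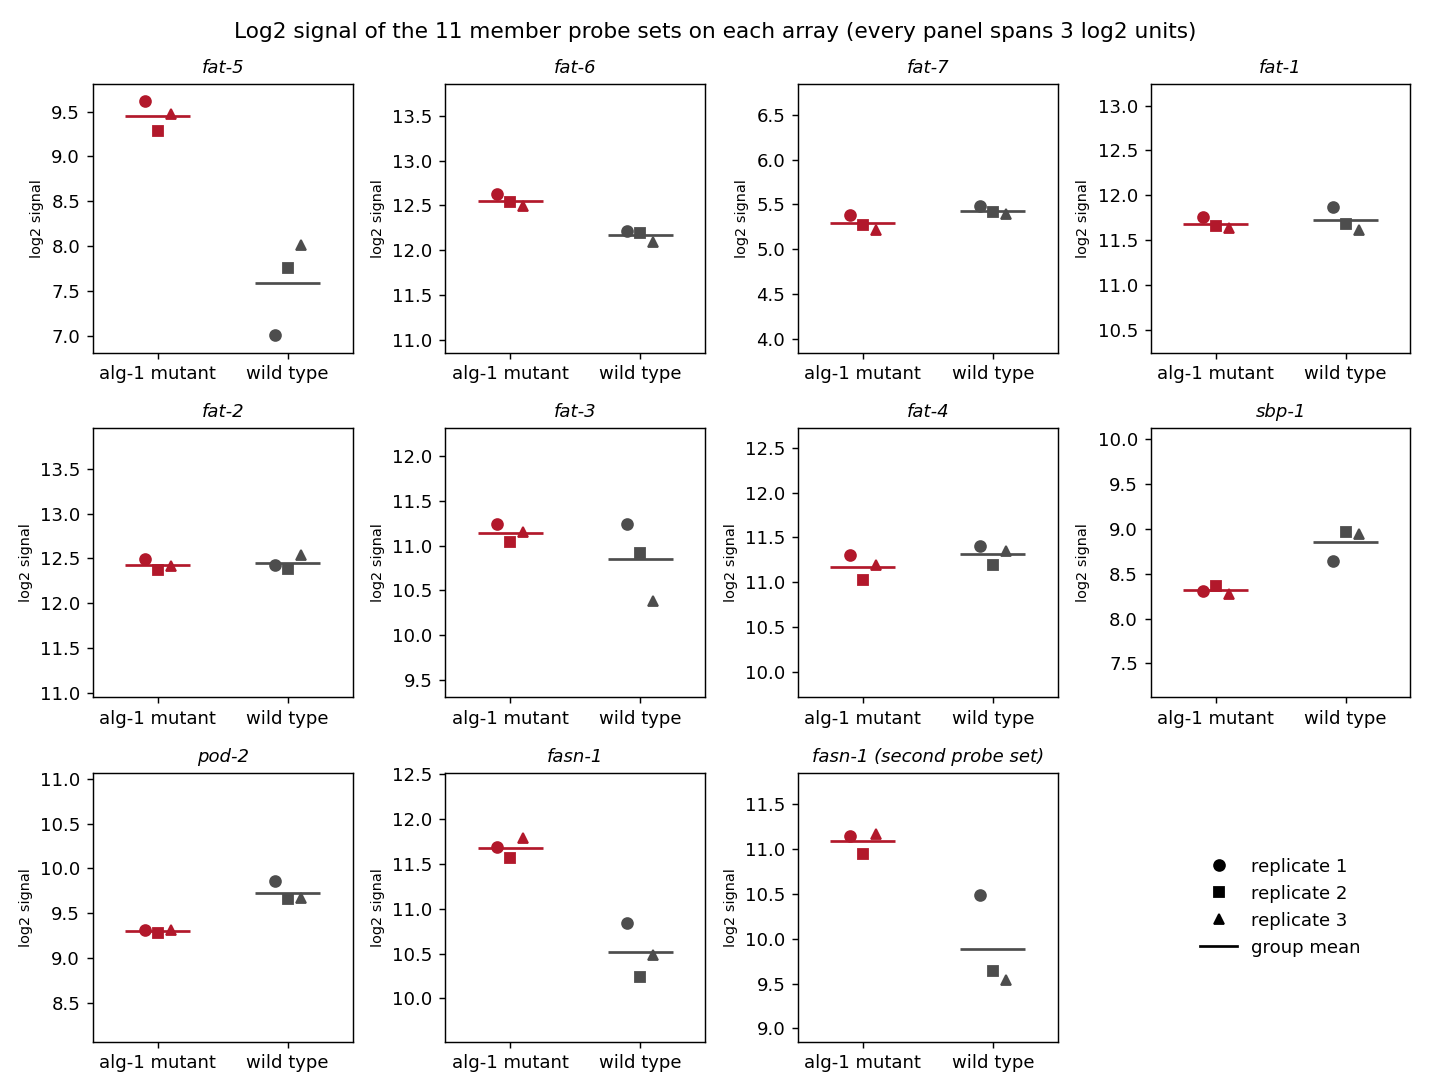
Log2 signal (y axis) of each member probe set on the 3 alg-1 mutant arrays (red, left) and the 3 wild type arrays (grey, right). Marker shapes give the replicate, lines the group mean, and every panel spans 3 log2 units. The fat-5 and fasn-1 panels have the widest gaps between genotypes, and fat-5, fasn-1 and fat-3 have the widest spread among wild type arrays.

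The transcription factor gene sbp-1 was lower in the mutant. Its signal was 8.30, 8.36 and 8.28 log2 in the mutant, against 8.64, 8.97 and 8.94 in wild type. Every mutant array was below every wild type array, and the mutant arrays lay closer together. The group means were 8.32 ± 0.042 in the mutant and 8.85 ± 0.18 in wild type (SD, n = 3 each). The difference was −0.53 (SE 0.096, limma adjusted p = 0.0028), so that the mutant signal was 0.69 of the wild type signal.

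The gene pod-2, for acetyl-CoA carboxylase, was lower as well. It read 9.31, 9.28 and 9.31 log2 in the mutant, against 9.86, 9.65 and 9.67 in wild type. The groups did not overlap, and wild type replicate 1 was the highest array. The means were 9.30 ± 0.021 in the mutant and 9.73 ± 0.12 in wild type (SD, n = 3 each), a difference of −0.43 (SE 0.078, limma adjusted p = 0.003). The sbp-1 and pod-2 probe sets end in _s_at, Affymetrix's mark for probes that match several transcripts, though the platform lists no other gene for either.

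The next enzyme of the route, fatty acid synthase, went the opposite way. The brighter fasn-1 probe set read 11.68, 11.57 and 11.79 log2 in the mutant, against 10.85, 10.24 and 10.48 in wild type. All mutant arrays were above all wild type arrays, by more than 0.7 log2 even for the closest pair. The means of 11.68 ± 0.11 in the mutant and 10.52 ± 0.30 in wild type (SD, n = 3 each) differed by 1.16 (SE 0.14, limma adjusted p = 0.000333), a 2.23-fold rise.

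The second fasn-1 probe set gave nearly the same size of change. It read 11.15, 10.95 and 11.17 log2 in the mutant, against 10.49, 9.64 and 9.53 in wild type. The groups were again separate, with wild type replicate 1 standing well above the other wild type arrays. The difference was 1.20 (SE 0.22, limma adjusted p = 0.00295), or 2.30-fold. Neither fasn-1 probe set carries the ending for shared probes.

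On the same array, the signal of pod-2 relative to fasn-1 was lower in every mutant sample. Set against the wild type mean, the log2 ratio was −1.58, −1.495 and −1.69 in the mutant, and −0.19, 0.21 and −0.02 on the wild type arrays. The mean shift was −1.59 log2 (SD 0.095 in the mutant and 0.20 in wild type). An exact two-sided permutation test gave p = 0.1, the smallest that 3 arrays against 3 allow, and 0.125 after adjustment over the 5 pairs of genes compared. With pod-2 wholly below and fasn-1 wholly above wild type in the mutant, this ratio had to separate the genotypes. Its p therefore adds nothing to the tests of the single genes.

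Of the delta-9 desaturase genes, fat-5 and fat-6 rose in the mutant and fat-7 did not pass. FAT-5 acts mainly on palmitic acid, whereas FAT-6 and FAT-7 act mainly on stearic acid and overlap in function. The palmitic acid desaturase gene fat-5 had the largest change of the 10 genes. It read 9.61, 9.28 and 9.47 log2 in the mutant, against 7.01, 7.75 and 8.01 in wild type. The lowest mutant array was more than 1 log2 unit above the highest wild type array, and wild type replicate 1 was the lowest of all. The means were 9.45 ± 0.17 in the mutant and 7.59 ± 0.52 in wild type (SD, n = 3 each), a difference of 1.86 (SE 0.22, limma adjusted p = 0.000299) and a 3.64-fold rise.

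The fat-6 gene rose by a smaller amount. Its signal was 12.63, 12.54 and 12.49 log2 in the mutant, against 12.21, 12.20 and 12.09 in wild type. The groups did not overlap and the spread within each was small. The means were 12.55 ± 0.070 in the mutant and 12.16 ± 0.066 in wild type (SD, n = 3 each), a difference of 0.39 (SE 0.073, limma adjusted p = 0.00373), or 1.31-fold. This probe set ends in _s_at, and fat-6 and fat-7 are close paralogs, so a contribution of fat-7 RNA to it was not tested.

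No rise was measured for fat-7. It read 5.38, 5.27 and 5.21 log2 in the mutant, against 5.48, 5.41 and 5.39 in wild type. The mutant arrays lay just below the wild type arrays without overlap. The difference of −0.14 (95% interval −0.31 to 0.03, limma adjusted p = 0.18) did not pass. The fat-7 probe set was the only member under the median signal of all probe sets, at percentile 41.

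**Figure D2:**
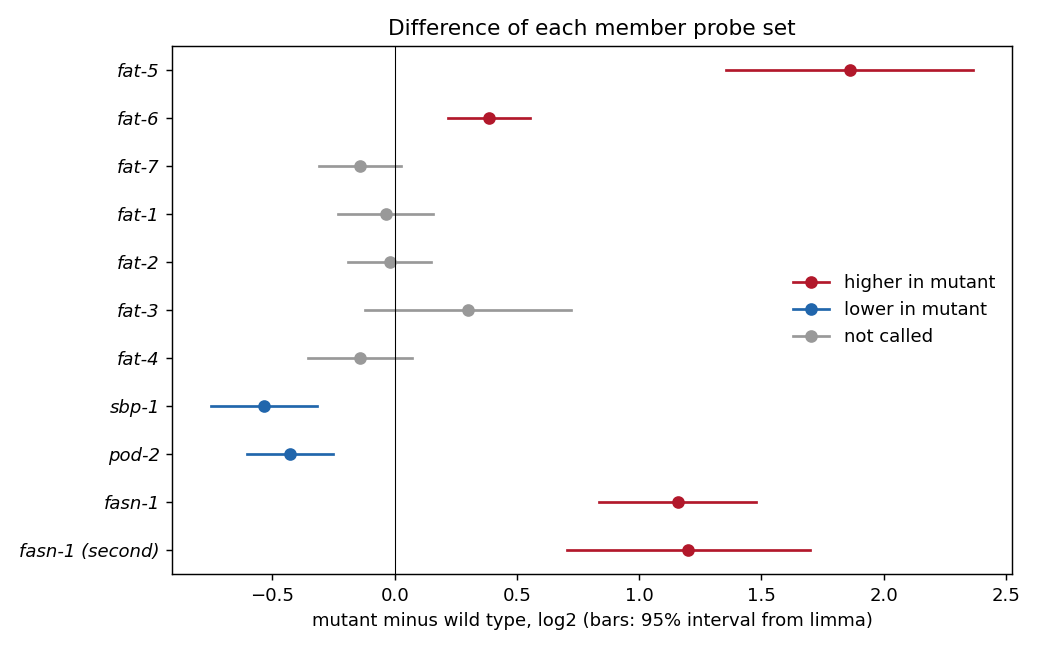
Difference in log2 signal (x axis, alg-1 mutant minus wild type) for each member probe set, with its 95% interval from limma. Red points were called higher in the mutant, blue points lower, and grey points did not pass. The 2 fasn-1 probe sets gave 1.16 and 1.20, and the intervals of fat-1, fat-2, fat-3, fat-4 and fat-7 include 0.

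The paralogs were also read against each other within arrays. Relative to the wild type mean, the log2 ratio of fat-6 to fat-7 was 0.51, 0.53 and 0.54 in the mutant, and −0.01, 0.05 and −0.04 on the wild type arrays. That of fat-5 to fat-6 was 1.56, 1.32 and 1.55 in the mutant, and −0.63, 0.13 and 0.50 on the wild type arrays. The groups were separate for each ratio, with mean shifts of 0.53 and 1.48 log2 (exact permutation p = 0.1 for each, the smallest possible, adjusted 0.125). For fat-6 to fat-7 this was fixed beforehand, because fat-6 lay wholly above and fat-7 wholly below wild type in the mutant. Without wild type replicate 3 the shifts were 0.51 and 1.73 log2. The fat-6 to fat-7 ratio rests on a low fat-7 signal that was not tested against background. It also rests on a fat-6 probe set that may read fat-7 RNA.

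None of the polyunsaturated fatty acid desaturase genes passed the test. FAT-2 converts oleic acid to linoleic acid, and fat-2 had 12.49, 12.37 and 12.41 log2 in the mutant, against 12.43, 12.38 and 12.53 in wild type. The arrays of the genotypes overlapped and spanned a narrow range. The difference was −0.02 (95% interval −0.19 to 0.15, limma adjusted p = 0.86).

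The neighbouring gene fat-1 encodes a desaturase that adds a double bond near the methyl end of polyunsaturated chains, an activity that mammals lack. It had 11.75, 11.66 and 11.64 log2 in the mutant, against 11.87, 11.68 and 11.61 in wild type. These values overlapped too, and the difference was −0.04 (95% interval −0.23 to 0.16, limma adjusted p = 0.782). In the RefSeq gene table, no protein-coding gene lies between fat-1 and fat-2. The ratio of fat-1 to fat-2 shifted by −0.02 log2 (exact permutation p = 0.8, and 0.8 adjusted over 5 pairs).

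FAT-3 and FAT-4 act later, each adding a double bond closer to the carboxyl end on the route to arachidonic and eicosapentaenoic acid. The fat-4 signal was 11.30, 11.03 and 11.20 log2 in the mutant, against 11.41, 11.20 and 11.35 in wild type, which overlapped. The difference was −0.14 (95% interval −0.35 to 0.07, limma adjusted p = 0.284).

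The fat-3 result depended on single wild type arrays. It had 11.24, 11.04 and 11.16 log2 in the mutant, against 11.24, 10.92 and 10.38 in wild type. Wild type replicate 1 was as high as the highest mutant array, and wild type replicate 3 was lower than all others. The difference of 0.30 (95% interval −0.12 to 0.72, limma adjusted p = 0.258) was 0.07 without wild type replicate 3 (adjusted p = 0.706). Without wild type replicate 1 it was 0.50 and passed (adjusted p = 0.029).

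The genes fat-3 and fat-4 are also neighbours with no protein-coding gene between them. Relative to the wild type mean, the log2 ratio of fat-3 to fat-4 was 0.41, 0.48 and 0.43 in the mutant, and 0.31, 0.19 and −0.50 on the wild type arrays. The mean shift of 0.44 (exact permutation p = 0.1, adjusted 0.125) was 0.19 without wild type replicate 3.

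**Figure D3:**
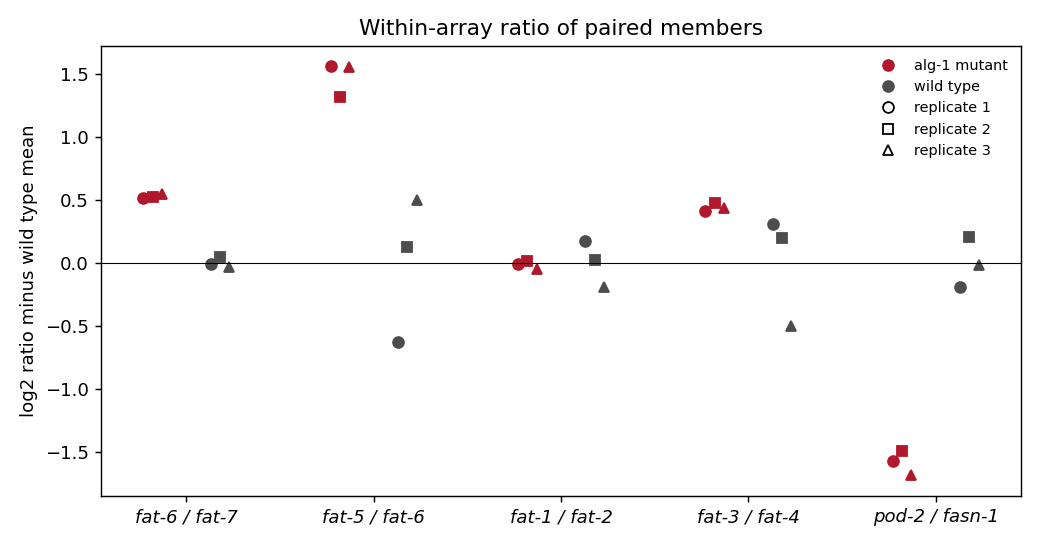
Log2 ratio of 2 member genes on the same array, minus the wild type mean of that ratio (y axis), for the 5 pairs compared (x axis). Red markers are alg-1 mutant arrays and grey markers wild type arrays, with shapes for replicates. The mutant arrays lie apart from wild type for every pair but fat-1 with fat-2, and the fat-3 with fat-4 gap rests largely on wild type replicate 3.

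Wild type arrays varied more than mutant arrays for 7 of the 10 genes, each read by its brightest probe set. By those probe sets the widest wild type spreads were those of fat-5 (SD 0.52, against 0.17 in the mutant), fat-3 (0.44, against 0.10 in the mutant) and fasn-1 (0.30, against 0.11 in the mutant). The second fasn-1 probe set had an SD of 0.12 in the mutant and 0.52 in wild type. Wild type replicate 1 had the highest wild type value for 7 genes, among them fasn-1, pod-2 and fat-3, and the lowest for fat-5 and sbp-1. The 5 calls kept their direction and passed with each array left out in turn. Over those fits the fat-5 difference ran from 1.57 to 2.07 and that of the brighter fasn-1 probe set from 1.02 to 1.32. Without wild type replicate 3, the array set apart by its GAPDH probe sets, the differences were 2.07 for fat-5, 0.35 for fat-6, 1.14 and 1.03 for the brighter and the second fasn-1 probe set, −0.49 for sbp-1 and −0.46 for pod-2, and all passed.

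By a fixed measure of likeness, Pearson's r over the 6 arrays among 8524 other genes above the median signal, the profiles nearest to fat-5 were those of kola-4 (r = 0.997, difference 0.30), F56C3.9 (r = 0.997, 1.63) and T06A4.3 (r = 0.997, 1.13). Those nearest to fasn-1 were the cuticle collagen gene dpy-9 (r = 0.999, difference 2.13), erp-44.2 (r = 0.998, 1.23) and the lipocalin-related gene lpr-5 (r = 0.997, 2.83). A correlation over 0.95 was common, at 6.48% of candidates for fat-5 and 5.73% for fasn-1. The 6 points of each correlation are 3 arrays of each genotype, and these values are descriptions only. For sbp-1 and pod-2 the measure was not computed, because it was set for the called gene with the smallest p in each class.

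Around these members, 7 lists of genes from lipid metabolism were read from the same fit. Together they held 65 measured genes, of which 15 were higher (23.1%) and 16 lower (24.6%) in the mutant, beside 14.4% and 20.1% of all genes. All genes include many of low signal, for which calls were rarer, and the lists were not compared with genes of like signal. Their median difference was −0.06 log2, as over all genes.

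Among 16 genes reported to control desaturase expression or fat storage, 6 were higher and 1 was lower, beside 14.4% and 20.1% of all genes. The falls numbered 3 with quantile normalization, and 0 with centring on the hybridization controls or without any one mutant array. Probe sets of a gene disagreed for 4 of these genes: the brightest ones of aak-2 (0.37) and hlh-30 (0.21) rose while another one of each (0.04 and 0.09) did not pass, and those of daf-16 (−0.02) and scp-1 (−0.23) did not pass while another daf-16 probe set rose by 0.66 and another scp-1 probe set fell by 0.26. The nuclear receptor gene nhr-49, a known activator of fat-5 and fat-7, read 10.25, 10.06 and 10.24 log2 in the mutant, against 9.62, 9.66 and 9.60 in wild type. The groups were well apart, with a difference of 0.56 (SE 0.075, limma adjusted p = 0.000616), and a second nhr-49 probe set rose by 0.39. The epidermal nuclear receptor gene nhr-25 rose by 0.89 (SE 0.15, adjusted p = 0.00169), and nhr-66, whose product partners NHR-49, by 0.49 (SE 0.092, adjusted p = 0.0036). The Mediator subunit gene mdt-15, a coactivator of SBP-1 and NHR-49 singled out once its values were known, was at −0.03 (adjusted p = 0.767), and nhr-80, singled out likewise, at −0.08 (adjusted p = 0.471).

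Genes of the methyl donor and phosphatidylcholine route were mostly lower: of 12 measured, 7 fell and 1 rose, with a median of −0.30. Over all genes, 20.1% fell and 14.4% rose. The S-adenosylmethionine synthetase gene sams-5 read 5.21, 5.29 and 5.14 log2 in the mutant, against 7.57, 7.35 and 7.66 in wild type, and fell by 2.31 (SE 0.093, limma adjusted p = 5.48e-07). The choline kinase gene ckb-2 read 7.59, 7.66 and 7.67 in the mutant, against 9.70, 10.15 and 9.72 in wild type, and fell by 2.22 (SE 0.12, adjusted p = 2.55e-06). These were the steepest falls of all 7 lists, far apart between genotypes. The sams-5 probe set ends in _s_at, and sams genes are close paralogs, so it may not read sams-5 alone. The phosphoethanolamine methyltransferase gene pmt-2 fell by 0.44 (SE 0.075, adjusted p = 0.00205). Another S-adenosylmethionine synthetase gene, sams-1, whose loss is known to raise fat storage, was singled out once its values were known and was at −0.06 (adjusted p = 0.659). The 7 falls became 4 when arrays were centred on the hybridization controls and without mutant replicate 1 or 3. On probe sets without the shared endings 4 falls were also counted. There sams-5, pmt-1 and pcyt-1, which have only _s_at probe sets, were not measured, so their falls could not be called.

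The enzymes that elongate fatty acids, which work in alternation with the desaturases, included the steepest rise. The elongase gene elo-4 read 9.45, 8.998 and 9.17 log2 in the mutant, against 6.43, 5.61 and 5.80 in wild type. The groups lay more than 2 log2 units apart, and the difference of 3.26 (SE 0.20, limma adjusted p = 6.16e-06) was a 9.59-fold rise. Of the 11 genes measured in this list, it was the only one to rise, and 4 fell, elo-7 by 0.92 (SE 0.14, adjusted p = 0.00127) and elo-9 by 0.52 (SE 0.088, adjusted p = 0.00211) with the smallest p. Over all genes, 14.4% rose and 20.1% fell. The list's median was −0.18, and 2 falls were left with centring on the hybridization controls. Without wild type replicate 1, 2 genes rose.

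Desaturases receive electrons through cytochrome b5 and its reductase, and 1 of 3 such genes fell, beside 20.1% of all genes. This was the reductase gene hpo-19, by 0.47 (SE 0.066, limma adjusted p = 0.000709), while cytb-5.2 (−0.18, adjusted p = 0.077) and cytb-5.1 (−0.07, adjusted p = 0.538) did not pass. With quantile normalization 2 of the 3 fell.

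Of 10 genes that supply acyl precursors or reducing power, 3 rose and 2 fell, beside 14.4% and 20.1% of all genes. The ATP citrate lyase gene acly-1, whose product supplies cytosolic acetyl-CoA, read 9.42, 9.41 and 9.44 log2 in the mutant, against 8.75, 8.60 and 8.28 in wild type. It rose by 0.88 (SE 0.11, limma adjusted p = 0.000455), with no overlap, and by 0.85 on its second probe set. The glyoxylate cycle gene icl-1 rose by 0.49 (SE 0.090, adjusted p = 0.00317), and the NADP-dependent isocitrate dehydrogenase gene idh-1 fell by 0.64 (SE 0.077, adjusted p = 0.000293), although a second idh-1 probe set (−0.18) did not pass. The falls numbered 1 without any one mutant array or wild type replicate 1 and with centring on the hybridization controls, where the rises numbered 5. On probe sets without the shared endings 0 fell. There idh-1 was read by its second probe set, and mdh-1, which also fell in the main fit, was not measured.

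Of 11 genes of triacylglycerol and lipid droplets, 3 rose and 1 fell, beside 14.4% and 20.1% of all genes. The list's median was 0.19. The lipase gene hosl-1, homolog of hormone-sensitive lipase, rose by 0.70 (SE 0.076, limma adjusted p = 0.000175). The lipid droplet coat gene plin-1 rose by 0.52 (SE 0.080, adjusted p = 0.00119) and the diacylglycerol acyltransferase gene mboa-2 by 0.51 (SE 0.082, adjusted p = 0.00152), and every further probe set of hosl-1, plin-1 and mboa-2 rose too. Probe sets of a gene disagreed for atgl-1 (a second one rose by 0.38) and acl-4 (a second one fell by 0.37), whose brightest probe sets, at 0.19 and −0.11, did not pass. With centring on the hybridization controls, 7 rose and 0 fell. Of the remaining lipid-modifying genes, the fatty acid hydroxylase gene fath-1 rose by 0.44 (SE 0.086, adjusted p = 0.00439) and the sphingolipid desaturase gene ttm-5 differed by 0.14 (adjusted p = 0.151), and with that centring 2 of these 2 genes rose.

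**Figure D4:**
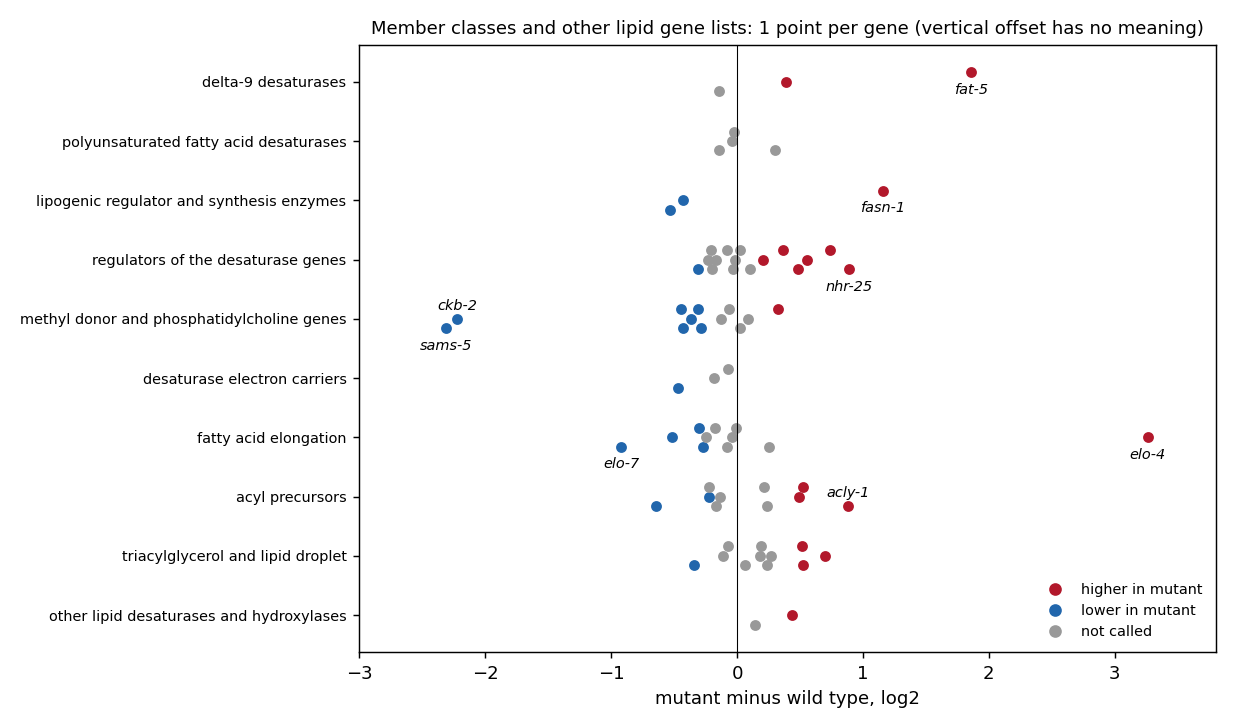
Difference in log2 signal (x axis, alg-1 mutant minus wild type) for each gene of the 3 member classes and the 7 other lipid lists (rows), with the brightest probe set of each gene. Red points were called higher in the mutant, blue points lower, and grey points did not pass. The elongase gene elo-4 at 3.26 and the genes sams-5 and ckb-2 at −2.31 and −2.22 lie farthest from 0.

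Of the tissue marker lists read in whole-worm RNA, those of hypodermis, germline and sperm moved most with genotype. Over all genes, 14.4% rose and 20.1% fell. Of 8 hypodermis markers, 6 rose and 0 fell (median 0.67), and the mean log2 signal of the list was 10.003 to 10.129 in the mutant and 8.90 to 9.11 in wild type. The rises were uneven, largest for rol-6 (2.71), che-14 (2.28) and dpy-7 (2.21). By contrast, elt-1 (0.04, limma adjusted p = 0.749) and elt-3 (−0.12, adjusted p = 0.313) did not pass. These genes were singled out once their values were known. With changes so unequal, the list does not measure the amount of hypodermis, and the time reached within L4 was not tested. Of 11 intestine markers, 2 rose and 4 fell (median 0.00), with a mean signal of 10.997 to 11.027 in the mutant and 10.974 to 11.079 in wild type. All 10 germline markers fell (median −0.84, mean signal 7.96 to 8.10 in the mutant and 8.86 to 8.90 in wild type), as did all 7 sperm markers measured (median −1.08, mean signal 4.77 to 4.87 in the mutant and 5.86 to 6.15 in wild type). Of 8 neuron markers, 3 rose and 1 fell (unc-31, at signal percentile 15.8), and of 8 body muscle markers, 0 rose and 1 fell. Some markers had probe sets that disagreed. Other probe sets of snb-1 (0.28) and snt-1 (0.38) rose and one of unc-22 (−0.34) fell, though their brightest did not pass. For nhr-23 (0.11), oma-2 (−0.01) and alg-4 (−0.18), another probe set did not pass, though the brightest did. With centring on the hybridization controls 2 intestine markers, 0 neuron markers and 0 muscle markers fell, and 5 neuron markers and 1 muscle marker rose. The single falls were not stable: 0 neuron markers fell with quantile normalization and without any one mutant array, wild type replicate 1 or wild type replicate 3, and 0 muscle markers fell without any one mutant array, wild type replicate 1 or wild type replicate 2. On probe sets without the shared endings, 6 germline, 2 sperm, 1 intestine and 0 muscle markers fell, among fewer genes measured. The 2 sperm markers, fer-1 and spe-11, were the only sperm markers with such a probe set. Of the other markers that had fallen, glh-4, pgl-1, oma-1, ifb-2, vha-6, act-5 and mup-2 were not measured there. The part of these shifts in the changes of fat-5, fat-6, fasn-1, sbp-1 and pod-2 was not tested.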

How the data were processed

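Affymetrix arrays of 3 alg-1 mutant and 3 wild type samples were used. The authors deposited log2 signals, 1 for each probe set on each array. The submitters' processing notes name Affymetrix Power Tools. Its version, and how background, normalization and summarization were done, is not given in the sources used. The scale was judged to be log2 from the range, 3.14 to 14.9. The values were used as deposited, after leaving out 77 control probe sets, and array medians were 6.01 to 6.05. No detection calls were used, and precision is limited by the number of arrays.

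Gene symbols of the platform annotation were brought up to date through gene identifiers in a RefSeq table (assembly WBcel235), which was used for names and for which genes neighbour each other. A gene was represented by its brightest probe set with 1 symbol. Mutant minus wild type was fitted with limma 3.58.1 in R 4.3.3 (lmFit, eBayes), two-sided, with Benjamini-Hochberg adjustment and a threshold of 0.05. The step was tested on simulated data with 200 changed probe sets. It recovered 55.2% of changes of 0.5 log2, 98.5% of those of 1 and 100% of those of 2. Of its 180 calls, 11 were false. In the data 7591 of 22548 probe sets passed, far more than were changed in the simulation. The adjustment was therefore stricter in the simulation, and its recovery rates do not give the power of the real fit. Small changes may be missed in the data too, at a rate that was not measured.

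The members, lists, pairs and alternatives were chosen with earlier results of these data known. All members were named whatever their values, with up to 3 genes of smallest p from each other list. The alternatives were 3 other scalings, a filter at the median signal, array weights, a robust prior with a trend on intensity, a threshold of 0.01, leaving out _s_at and _x_at probe sets, the replicate number as a block, the mean of a gene's probe sets, and leaving out each array.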

Additional observations from a re-analysis of the deposited data

How the results depend on the processing

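The calls of fat-5, fat-6, fasn-1 (both probe sets), sbp-1 and pod-2 kept their direction and passed under every alternative that retained their probe set. The smallest margin was that of pod-2 with centring on the hybridization controls (−0.29, adjusted p = 0.0481). That centring moved the median difference of all probe sets from −0.05 to 0.08, and higher calls made up 68.8% of all calls, against 44.0% with the values as deposited. It gave 4858 higher and 2201 lower calls, against 3340 and 4251 as deposited. Without probe sets ending in _s_at or _x_at there were 2171 higher and 2544 lower calls, and 2 member genes were higher and 0 lower, because the only probe sets of fat-6, sbp-1 and pod-2 carry the _s_at ending, which leaves no limma test of these genes at any unadjusted p. At a threshold of 0.01 there were 2213 higher and 2554 lower calls.

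The members' median difference, −0.03 as reported, was 0.10 with centring on the hybridization controls and ran from −0.062 to 0.0040 with arrays left out. The sign of fat-1 turned with that centring (0.10) and without wild type replicate 1; with arrays left out it ran from −0.090 to 0.040. The sign of fat-2 turned with that centring (0.11), with array weights (0.0036), and without mutant replicate 2 or wild type replicate 3; with arrays left out it ran from −0.054 to 0.022. None of these values passed. With arrays left out, the ratio of fat-1 to fat-2 ran from −0.11 to 0.071. The ratio of fat-6 to fat-7 was 0.48 with quantile normalization. The causes were not tested.

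Replicate numbers are shared by the genotypes, but same-numbered arrays deviated together at r = 0.21, 0.13 and 0.08, so they were not taken as pairs. With the replicate number as a block, 7766 probe sets passed, against 7591 without it, and the same 3 higher and 2 lower member counts were found (fat-5 1.86, adjusted p = 0.000409). Of 308 recomputed counts of the other lists, 44 moved by over 1.5 times, 13 of them with centring on the hybridization controls. Whether the fat-7 signal lies above background was not tested, since no detection calls were used.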
